A study of Caenorhabditis elegans with 10 samples.

Results

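Cuticlins are the insoluble, cross-linked proteins of the nematode cuticle, and most of them carry a zona pellucida (ZP) domain, a polymerisation module first known from the coat of the mammalian egg. The genes described here are the rows of the count tables named cut- or cutl- (cuticlin-like) with a number, together with noah-1, noah-2, fbn-1, dyf-7, let-653, sym-1 and dex-1, which encode other proteins of the apical extracellular matrix. By that rule there were 42 genes of 20222 in the tables: 6 cut genes, 29 cutl genes and 7 others. All 42 were placed by name on the WBcel235 genome. Of the 7 others, noah-1, noah-2, fbn-1, let-653 and dyf-7 encode ZP proteins, dex-1 a nidogen-domain protein and sym-1 a secreted leucine-rich repeat protein.

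RNA was measured in whole Caenorhabditis elegans dauers, the arrested larvae that form under adverse conditions, with 5 libraries of each of 2 genotypes. All animals carried daf-2(e1370), a temperature-sensitive allele of the insulin-like receptor gene, and were held from synchronized eggs at 25°C for 10 days. The first group had only this mutation and is called daf-2. The other also carried chd-7(gk290), a deletion in the gene of a chromatin-remodelling ATPase, and is called chd-7;daf-2 or the double mutant. Nothing in the labels ties the libraries to separate cultures. The p-values therefore reflect only how much these libraries vary, which may be technical in part.

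ZP proteins are secreted or membrane-anchored by the epidermis and by epithelia that line narrow tubes, are usually released by a furin-like protease, and then assemble into fibrils or sheets beneath or within the cuticle. The dauer cuticle is built at the moult into dauer and has lateral ridges, the alae, and a body narrowed by radial shrinkage. In C. elegans CUT-1, CUT-5 and CUT-6 are known for roles in dauer alae or dauer body width, and DEX-1 for a role in remodelling the seam cells beneath the alae. The NOAH and FBN-1 proteins are known from the sheath that holds the embryo's epidermis together while it elongates.

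Total gene counts were 7331885 to 14997608 reads per library, and a count of 0 allowed a level of up to 0.196 to 0.393 CPM (CPM are counts scaled to a common library size with TMM factors, and the limit is 3 counts, for counting error only). Of 12499 genes tested, 36.2% differed between genotypes (17.9% higher and 18.3% lower in the double mutant) at an adjusted p under 0.05 (edgeR quasi-likelihood test, Benjamini-Hochberg over all tested genes, used throughout). The chd-7 gene itself was at 207 to 263 CPM in daf-2 against 234 to 283 CPM in the double mutant (log2 difference 0.21 ± 0.10 SE, adjusted p = 0.137). Counts summed over the gene cannot check a partial deletion. The 6 dauer markers in the tables had reads in every library, with a summed level of 6308 ± 745 CPM in daf-2 against 4510 ± 1032 CPM in the double mutant. All 6 had negative log2 fold changes (median -0.81), from -0.13 for lea-1 to -1.83 for col-40, and 1 was called lower, sodh-1 (-1.08 ± 0.17, adjusted p = 0.000592). Genotypes also differed in tissue markers: all 10 body wall muscle genes rose, 13 of 15 germline genes fell and 5 of 9 tested intestine genes fell while 2 rose. Among 14 tested epidermis and seam markers, 4 rose (28.6%) and 1 fell (7.14%), where 17.9% and 18.3% of all tested genes did so. Their share of calls in either direction (35.7%) was near that of all tested genes. The summed level of these markers was 586 to 684 CPM in daf-2 against 696 to 865 CPM in the double mutant. The adult-type collagen gene bli-1 and ceh-16 had no reads. In whole animals, fewer cells of a type and less RNA per cell cannot be told apart, and the part of these shifts in the cuticlin results was not tested.

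The counting left traces that bear on single genes. Of 540 protein-coding genes lying wholly inside the span of another, 87.4% had no read in any of the 10 libraries, against 4.55% of 17968 other genes. On opposite strands it was 92.8% of 473. The sym-1 gene lies inside C44H4.4, which is on the other strand of chromosome X, and it had 0 reads in all 10 libraries, so its 0 cannot be read as absence of RNA. Of the other members, cutl-20 has the largest share of exonic bases inside spans of other protein-coding genes, 17.3% inside shc-1, followed by cutl-17 with 5.47%. With noncoding genes on the other strand, cut-1 shares 9.82% of its exonic bases, cutl-29 6.66% and cutl-7 5.97%.

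About as many members were too low to test as were tested. Of the 42 genes, 22 passed the filter on low counts: 4 of 6 cut genes, 13 of 29 cutl genes and 5 of the 7 others. The 20 that did not pass had 0 to 86 reads over all 10 libraries (median 27.5), and none exceeded 1.55 CPM in any library. All of them but sym-1 had reads, 8 of them in all 10 libraries, so the filter does not separate expressed from silent genes: cutl-12, not tested, had a mean of 1.02 CPM in daf-2, above the tested cut-5 (0.911 CPM) and cutl-16 (0.537 CPM). Besides sym-1 they included dyf-7, whose product anchors sensory dendrites, with 19 reads in daf-2 against 27 in the double mutant. The repetitive cuticlin gene cut-2, which has no ZP domain, had 17 and 8 reads, and cut-3, known for the alae of newly hatched larvae, had 12 and 4. Together the 20 came to 5.89 ± 1.05 CPM in daf-2 (SD, n = 5) and 5.89 ± 1.30 CPM in chd-7;daf-2. The coding length of the genes did not set the groups apart by much, with a median of 1513.5 bases in the tested and 1336.5 in the others. Chromosome V held 5 members, of which only cutl-22 passed, and chromosome III held 6, of which 5 passed.

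Per kb of exon, the leading members in daf-2 dauers were cutl-14 at 23.4 ± 3.27 CPM per kb and cutl-15 at 17.4 ± 1.23. Both overlapped each other between libraries but cutl-15 stood above all libraries of the gene that followed, cutl-26 (9.90 ± 2.30). The gene cut-1 (9.74 ± 7.13), cutl-20 (9.12 ± 1.48) and fbn-1 (6.98 ± 2.38) came next, and from cutl-26 downwards every gene overlapped its neighbour in the order. At the bottom were let-653 (0.451 ± 0.228) and cutl-16 (0.288 ± 0.111). In chd-7;daf-2 the order led with cutl-15 (18.3 ± 1.73), which no library of the next gene reached, then cutl-20 (13.2 ± 1.08), fbn-1 (12.1 ± 2.54), cutl-26 (10.6 ± 2.41) and cut-6 (10.5 ± 1.89). Between the genotypes cutl-14 went from rank 1 to rank 8 of 22, cut-1 from 4 to 14 and noah-1 from 12 to 7. The order depends on the length used. Per kb of exon outside other protein-coding genes, cutl-20 was at 11.03 CPM per kb in daf-2, which moves it from rank 5 to rank 3, and at 15.95 CPM per kb in the double mutant. There its highest library (17.3) passed the lowest of cutl-15 (16.5), so that these genes were no longer apart.

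**Figure D1:**
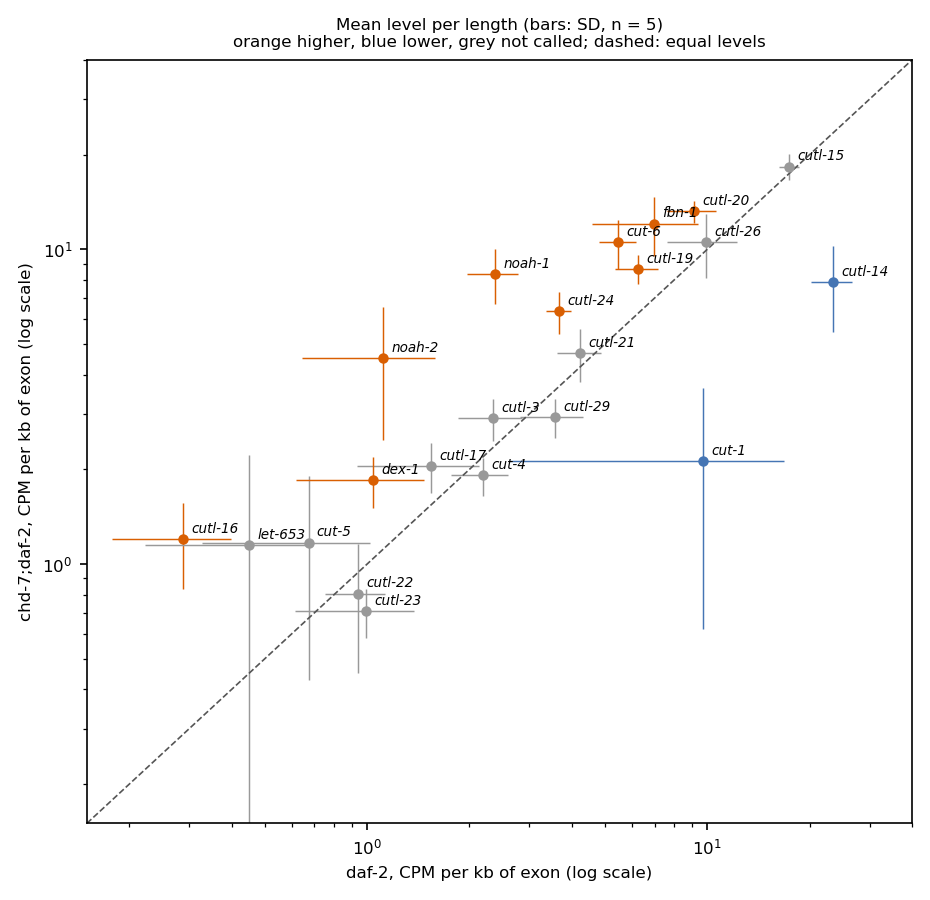
Mean level per kb of exon of the 22 tested members in daf-2 (x axis) and chd-7;daf-2 (y axis), both in CPM per kb on log scales, with bars for the SD over 5 libraries; orange genes were called higher, blue lower and grey not called. Genes near the dashed line of equal levels include cutl-15 (17.4 and 18.3 CPM per kb), while noah-1 lies above it (2.37 and 8.35) and cutl-14 below it (23.4 and 7.87).

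Between genotypes, 9 of the 22 tested members were higher in chd-7;daf-2, or 40.9%, where 17.9% of all tested genes were called higher. Lower calls were 2, or 9.09%, against 18.3% of all tested genes. The median log2 fold change was 0.43 over the tested members and -0.03 over all tested genes. Among the higher members, cutl-16 passed the count filter only through its chd-7;daf-2 libraries and so had to differ. Without it, 8 of 21 (38.1%) were higher. Libraries of the genotypes did not overlap for 7 higher members and 1 lower one, or 8 of 22 (36.4%), against 22.7% of all tested genes, and without cutl-16 for 7 of 21 (33.3%). At least 2-fold calls were 5 of 22 (22.7%), or 4 of 21 (19.0%) without cutl-16, against 14.7% of all tested genes. By role, 4 of the 5 tested matrix genes outside the cut and cutl names rose, with 1 cut gene and 4 cutl genes. The 2 that fell were cut-1 and cutl-14. The summed level of the 7 named matrix genes was 84.3 ± 19.9 CPM in daf-2 against 170 ± 28.1 CPM in the double mutant, and without fbn-1, the largest part of it, 17.6 ± 4.34 and 54.2 ± 8.37 CPM. The 29 cutl genes together were at 122 ± 9.14 and 125 ± 10.7 CPM and the 6 cut genes at 30.1 ± 11.6 and 28.0 ± 6.76 CPM. Within the cutl sum, the lower cutl-14 offset higher levels elsewhere, and without cutl-14 it was 98.3 ± 6.83 and 116.9 ± 8.88 CPM.

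**Figure D2:**
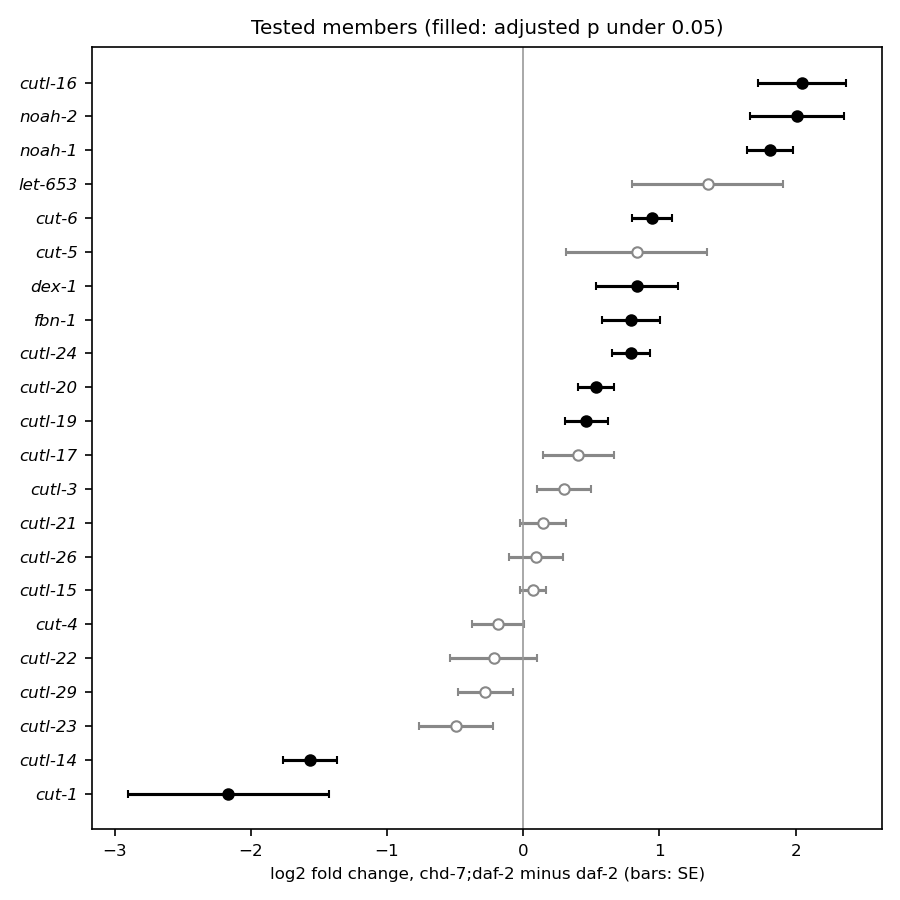
Log2 fold change (chd-7;daf-2 minus daf-2) of the 22 tested members with its SE; filled points have an adjusted p under 0.05. The calls run from cut-1 at -2.16 to cutl-16 at 2.05, and 11 members are not called.

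The genes noah-1, noah-2 and fbn-1, known from the embryonic sheath, all rose, and noah-1 had the lowest p-value of any member. The noah-1 gene, on the minus strand of chromosome I from 5874416 to 5878958, was read at 6.57, 10.4, 9.79, 9.88 and 8.38 CPM in daf-2 replicates 1 to 5 and at 35.6, 40.5, 30.3, 26.8 and 25.3 CPM in chd-7;daf-2. Every chd-7;daf-2 library was above every daf-2 library by a wide margin. The log2 fold change was 1.81 ± 0.17 (adjusted p = 2.52e-05). Its partner noah-2, on chromosome IV from 14091254 to 14096626, was at 2.65, 4.12, 4.12, 1.87 and 1.57 CPM in daf-2 and at 10.1, 11.7, 8.08, 7.52 and 20.4 CPM in chd-7;daf-2. Again no libraries overlapped, and replicate 5 of chd-7;daf-2 was the highest by far. It rose by 2.01 ± 0.35 (adjusted p = 0.00124), and by 1.65 without that library and daf-2 replicate 1 (adjusted p = 0.00406).

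The fibrillin-related gene fbn-1, on chromosome III from 7625386 to 7641078, gave the most reads of any member, 10497 of them, and between 21.3% and 44.1% of the members' summed CPM in each library. It was at 106, 53.6, 66.7, 51.9 and 55.1 CPM in daf-2 and at 94.3, 100.4, 134, 99.8 and 149 CPM in chd-7;daf-2. The genotypes overlapped through daf-2 replicate 1 alone, which stood above the other 4 daf-2 libraries and above 3 of the chd-7;daf-2 libraries. The log2 fold change was 0.79 ± 0.21 (adjusted p = 0.0142). Without daf-2 replicate 1 it was 1.02 (adjusted p = 0.000965). The call was lost when daf-2 replicates 2 and 3 were left out together with chd-7;daf-2 replicate 4 (adjusted p = 0.0827), and also with close libraries summed (0.0605) or a fold threshold of 1.5 (0.316). Of these 3 libraries, daf-2 replicate 3 and replicate 4 of the double mutant had the highest summed germline markers of their genotypes, 852 and 423 CPM. The other, daf-2 replicate 2, had the lowest of its genotype, 379 CPM. Whether germline content bears on the fbn-1 call was not tested.

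The seam and dendrite matrix gene dex-1 was at 1.45, 6.09, 4.58, 4.08 and 4.84 CPM in daf-2 and at 6.32, 7.54, 9.57, 6.10 and 7.73 CPM in chd-7;daf-2. The genotypes were separated only by the small gap between daf-2 replicate 2 and replicate 4 of the double mutant, and daf-2 replicate 1 was the lowest. The rise of 0.83 ± 0.30 only just passed (adjusted p = 0.0478). It was lost on leaving out singly replicates 3, 4 or 5 of daf-2 or replicates 1, 2, 3 or 5 of chd-7;daf-2 (highest adjusted p = 0.107), and with upper-quartile (0.0549) or total-count scaling (0.0700). The gene let-653, known from the lumen of the excretory duct and the vulva, was at 0.597, 1.77, 1.74, 1.31 and 0.524 CPM in daf-2 and 1.23, 1.9995, 1.67, 2.18 and 8.05 CPM in chd-7;daf-2. One library, chd-7;daf-2 replicate 5, held most of the difference. Its log2 fold change was 1.35 ± 0.55 (adjusted p = 0.0750) and 0.53 without that library (adjusted p = 0.300).

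Among the numbered cuticlins, cut-6 rose and cut-1 fell. The cut-6 gene, on chromosome III from 10911460 to 10916665, was at 8.71, 9.82, 9.34, 11.5 and 11.5 CPM in daf-2 and at 23.3, 22.5, 15.6, 16.3 and 19.97 CPM in chd-7;daf-2. The genotypes did not overlap, and the log2 fold change was 0.94 ± 0.15 (adjusted p = 0.000735). The call held without each library in turn, with the fold change between 0.88 and 1.02.

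The founding member of the family, cut-1, lies on chromosome II from 11269122 to 11271660 and shares 147 exonic bases with the noncoding gene C47G2.15 on the other strand. It was at 1.79, 23.5, 6.13, 26.5 and 15.1 CPM in daf-2 and at 4.30, 4.91, 1.21, 0.327 and 5.17 CPM in chd-7;daf-2. In daf-2 the libraries spread more than 10-fold, with replicate 1 below 3 of the chd-7;daf-2 libraries, so the genotypes overlapped. The log2 fold change was -2.16 ± 0.74 (adjusted p = 0.0406). The call held without daf-2 replicate 1 (0.0134) or daf-2 replicate 3 (0.0376) and was lost without any 1 of the other 8 libraries (up to 0.0935). The 2 other tested cut genes were not called. For cut-5, known from the alae, levels were low, from 0.171 to 1.37 CPM in daf-2 against up to 3.08 CPM in the double mutant, with a log2 difference of 0.83 ± 0.52 (adjusted p = 0.228). For cut-4 the difference was -0.19 ± 0.19 (adjusted p = 0.474).

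**Figure D3:**
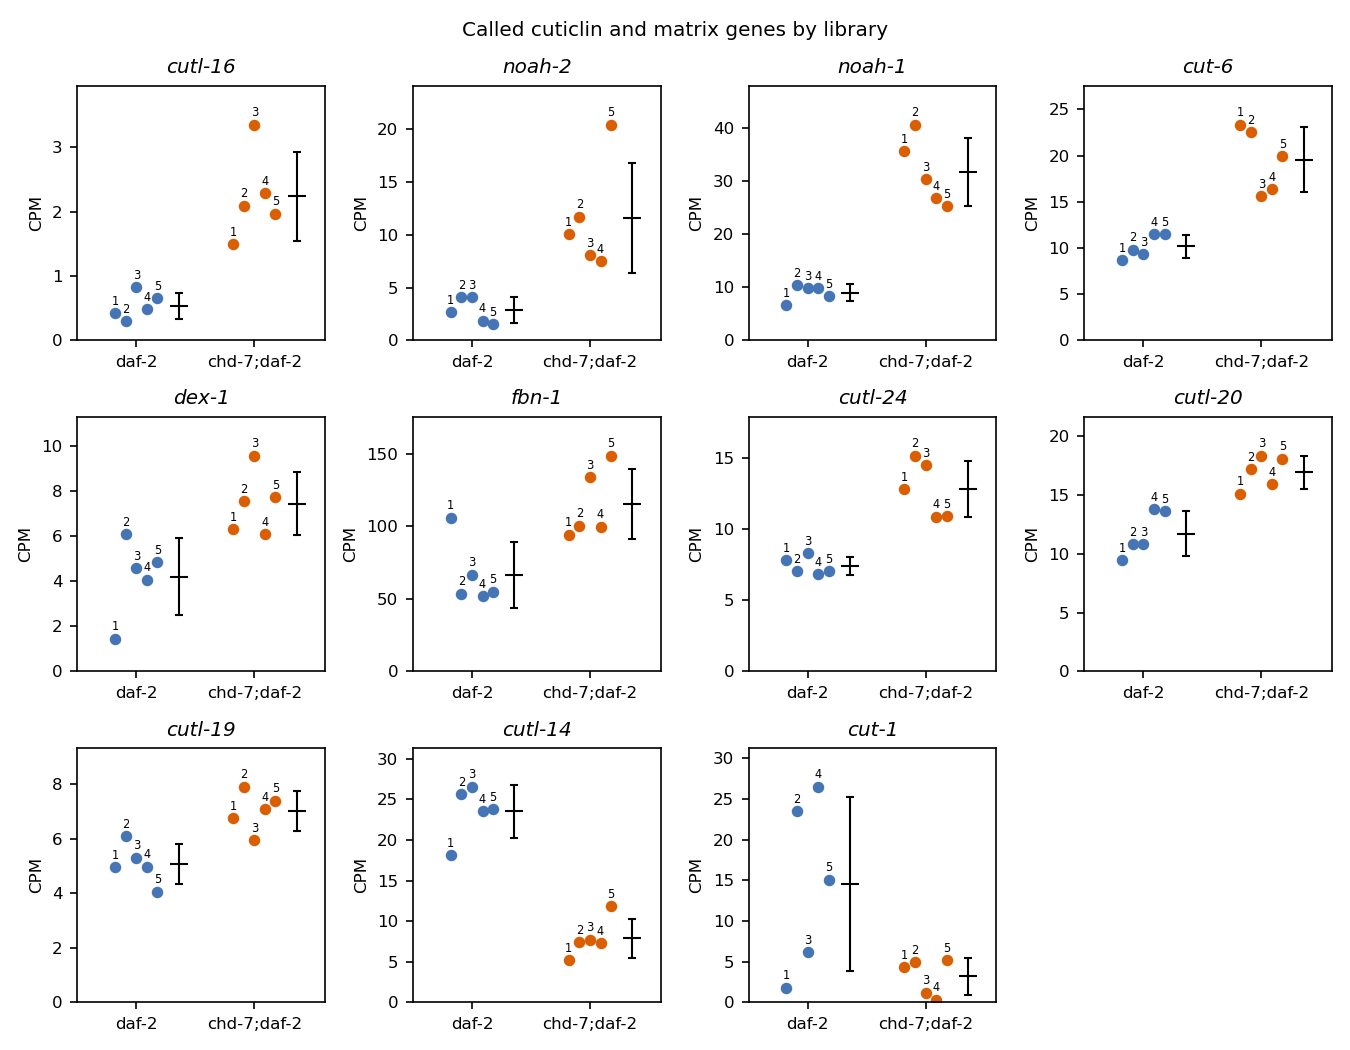
CPM of the 11 called members in each library (numbered points, by replicate) with mean and SD beside them, daf-2 in blue and chd-7;daf-2 in orange, each panel from 0. Points of the genotypes are apart in 8 panels and overlap for fbn-1, cutl-19 and cut-1; the daf-2 points of cut-1 run from 1.79 to 26.5 CPM.

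In the cuticlin-like genes, whose products are little studied, 4 of 13 tested genes rose and 1 fell. Their share of calls, 38.5%, was near the 36.2% of all tested genes. By direction, 30.8% were higher and 7.69% lower, against 17.9% and 18.3% of all tested genes. The 4 rises include cutl-16, which passed the filter only through its chd-7;daf-2 libraries. The fall was in cutl-14, on chromosome I from 10628743 to 10631674, at 18.1, 25.6, 26.5, 23.6 and 23.8 CPM in daf-2 and 5.18, 7.45, 7.71, 7.30 and 11.9 CPM in chd-7;daf-2. The genotypes were well apart, and the log2 fold change was -1.57 ± 0.20 (adjusted p = 0.000180). It was the leading member per length in daf-2 dauers and the clearest fall in the family. Leaving out each library in turn kept the fold change between -1.78 and -1.45.

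The largest rise, in cutl-16 on chromosome II from 6441428 to 6443994, started from 0.427, 0.295, 0.824, 0.484 and 0.654 CPM in daf-2, only 29 reads in all, and reached 1.49, 2.09, 3.35, 2.29 and 1.96 CPM in chd-7;daf-2. The groups did not overlap, although the daf-2 libraries lie near the counting limit. Because cutl-16 passed the count filter only through its chd-7;daf-2 libraries, neither that gap nor its p-value adds support. The log2 fold change was 2.05 ± 0.32 (adjusted p = 0.000757). The gene cutl-24, on chromosome IV from 165077 to 169980, was at 7.85, 7.07, 8.33, 6.84 and 7.07 CPM in daf-2 and 12.8, 15.2, 14.5, 10.9 and 10.9 CPM in chd-7;daf-2. All its chd-7;daf-2 libraries were higher, with a log2 fold change of 0.79 ± 0.14 (adjusted p = 0.00156).

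Smaller rises were called for cutl-20 and cutl-19. The first was at 9.47, 10.8, 10.8, 13.8 and 13.6 CPM in daf-2 and 15.1, 17.2, 18.3, 15.9 and 18.1 CPM in chd-7;daf-2, without overlap (0.53 ± 0.13, adjusted p = 0.00974). Its call was lost without the same 3 libraries that end the fbn-1 call (adjusted p = 0.0633). For cutl-19 the range was 4.06 to 6.09 CPM in daf-2 against 5.95 to 7.91 CPM in the double mutant, with daf-2 replicate 2 just above replicate 3 of the double mutant (0.46 ± 0.16, adjusted p = 0.0382). That call held only on leaving out daf-2 replicate 2 (0.0293) or replicate 3 of the double mutant (0.0396), was lost without any other single library (up to 0.0894), and was also lost with upper-quartile (0.0514) and total-count scaling (0.0582).

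The other 8 tested cutl genes were not called, with log2 differences from -0.49 to 0.41. The steadiest was cutl-15, at 25.9, 28.6, 26.2, 24.8 and 23.7 CPM in daf-2 and 26.1, 29.99, 28.6, 23.3 and 27.7 CPM in chd-7;daf-2. These values overlap throughout, and the log2 difference was 0.07 ± 0.10 (adjusted p = 0.590). Its coefficient of variation was 7.04% in daf-2 against 9.44% in the double mutant, against 73.2% and 70.7% for cut-1. The genes cutl-26 (0.09 ± 0.20) and cutl-21 (0.14 ± 0.17) also lay close to 0. The estimates lay farther from 0 for cutl-17 (0.41 ± 0.26), cutl-3 (0.30 ± 0.20), cutl-22 (-0.22 ± 0.32), cutl-29 (-0.28 ± 0.20) and cutl-23 (-0.49 ± 0.27), without passing the threshold. When all genes with a read were tested, cutl-7 (9 reads in daf-2, 39 in chd-7;daf-2) and cutl-9 (5 and 25 reads) were called higher (adjusted p = 0.0367 and 0.0357), on counts near the limit. In that fit cut-1 (0.0855) and cutl-19 (0.0690) were no longer called, and the 11 calls among 41 members (26.8%) stood against 24.0% of all genes tested there.

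**Figure D4:**
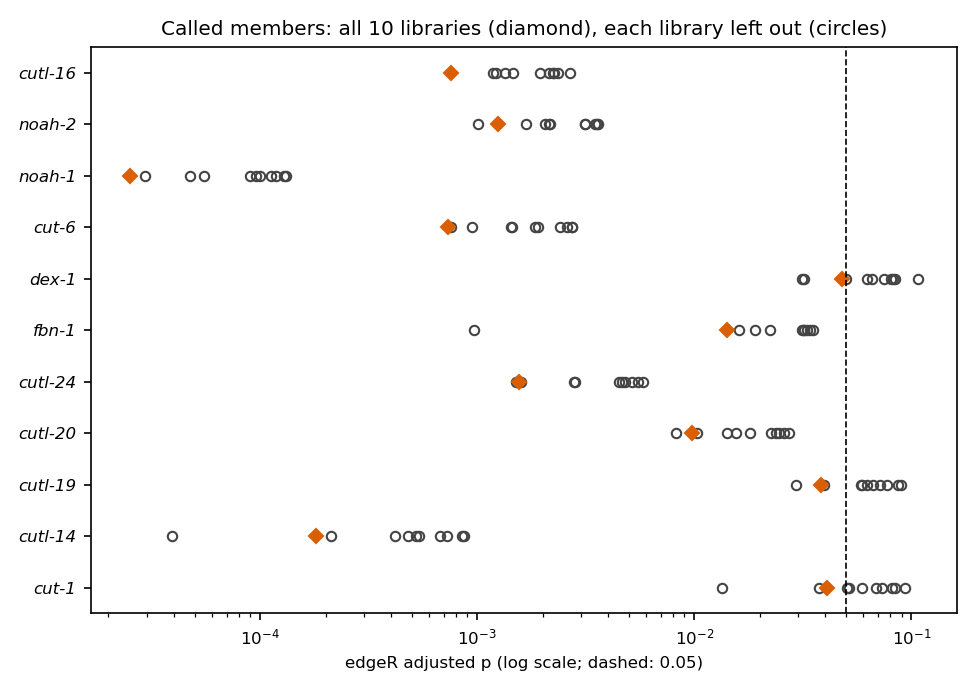
Adjusted p of the 11 called members in edgeR's test with all 10 libraries (diamonds) and with each library left out in turn (open circles), on a log scale, with a dashed line at 0.05. For 8 members all circles stay left of the line; for cut-1, cutl-19 and dex-1 most lie to its right, up to 0.107 for dex-1.

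Libraries of a genotype differed over the family, but not in the same direction for every member. The mean log2 level of the tested members, relative to the daf-2 mean, was -0.35 in daf-2 replicate 1. It was -0.02 to 0.16 in the other daf-2 libraries. In chd-7;daf-2 it was 0.64 in replicate 5 and 0.07 to 0.52 in the others. In daf-2, replicate 1 was the lowest of the 5 libraries for 9 of 22 tested members, among them cut-1, cut-5, cut-6, noah-1, dex-1 and cutl-14, yet it was the highest for fbn-1 and cut-4. In chd-7;daf-2, replicate 5 was the highest for 9 members, including noah-2, let-653, fbn-1 and cutl-14, and replicates 1 and 4 were the lowest for 9 and 8. Replicate 5 of the double mutant was also left out together with daf-2 replicate 1, a choice made after these values were seen. Then 9 of 22 members (40.9%) were called, near the 35.3% of all genes tested there. Their median log2 fold change was 0.29. All 9 were among the 11, and cutl-19 (adjusted p = 0.103) and dex-1 (0.0568) were lost.

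**Figure D5:**
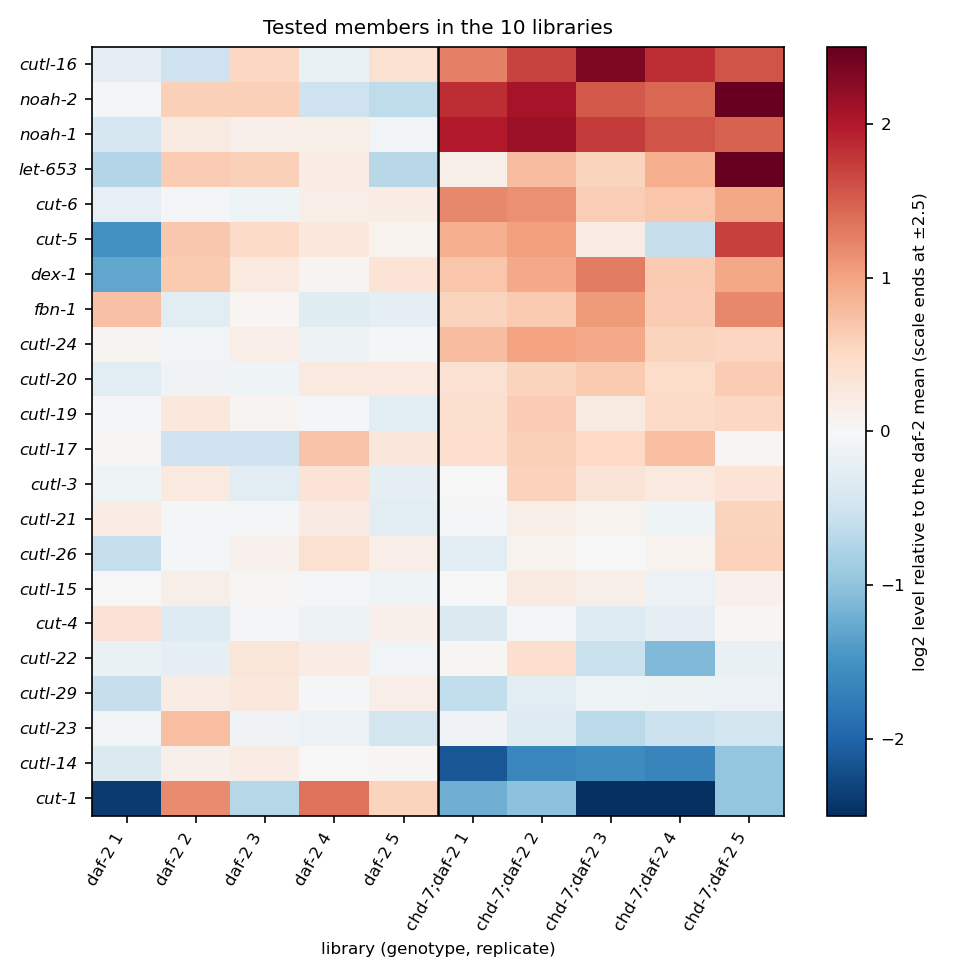
Log2 level of the 22 tested members (rows, ordered by fold change) in the 10 libraries (columns), relative to each gene's mean over the daf-2 libraries, with 2 counts added to each value; the vertical line separates genotypes and the colour scale ends at 2.5 in either direction. Most of the upper rows are red across chd-7;daf-2, the cutl-14 row is blue there, and the cut-1 row varies within both genotypes. Among the upper rows, cut-5 is at -0.59 in chd-7;daf-2 replicate 4 and let-653 at only 0.14 in replicate 1.

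A list of 47 genes of the apical matrix and of its processing, trafficking and attachment is called the apical matrix partners here. Not all of them are known to act with the members' proteins. Of the 47, 46 were in the tables and 34 were tested. In chd-7;daf-2, 12 of them (35.3%) were higher and 5 (14.7%) lower, against 17.9% and 18.3% of all tested genes. The median of their log2 fold changes was 0.66, against -0.03. That median fell to 0.31 without chd-7;daf-2 replicate 5 and to 0.35 with limma-voom. Without that library, 9 of 34 (26.5%) were higher, against 16.7% of all genes tested there. With all 10 libraries, the lowest p-values were those of bli-3, mlt-7 and tsp-15. These encode a dual oxidase, a peroxidase and a tetraspanin that act together in cross-linking the cuticle. The bli-3 level rose by 1.15 ± 0.13 on the log2 scale (adjusted p = 8.34e-05), mlt-7 by 1.64 ± 0.20 (adjusted p = 0.000163), and tsp-15 from 7.34 to 19.5 CPM (1.41 ± 0.17, adjusted p = 0.000149). The furin-like proteases that release ZP proteins in other settings, bli-4 and kpc-1, were not called (-0.05 ± 0.10 and 0.19 ± 0.13, adjusted p = 0.725 and 0.254).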

How the data were processed

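RNA abundance was measured in 10 libraries of whole dauers, 5 per genotype, grouped by the titles in the labels. Each library has its own file of raw gene counts, as deposited by the authors. The submitters' processing notes name HTSeq 0.9.1, STAR 2.5.4a, DESeq2 1.20.0 and FastQC 0.11.5. For the genome build, the annotation and the strand setting, nothing was given in the sources used. HTSeq's tallies, which name no gene, stayed out of library sizes and tests: reads outside genes were 2.94% to 5.70%, ambiguous reads 2.07% to 2.30% and reads with several alignments 5.53% to 11.2% per library.

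The test was edgeR 4.0.16 under R 4.3.3: filterByExpr (minimum count 10, minimum total 15), TMM scaling, and a robust quasi-likelihood F test between genotypes with no covariate, adjusted over 12499 genes at a threshold of 0.05. The SE is the size of the log2 fold change divided by the square root of F. Other settings tried were limma 3.58.1 (voom, weighted by quality), DESeq2 1.42.0, 3 other scalings, 2 other filters, a fold threshold of 1.5, the replicate number as a factor, leaving out libraries, and summing close libraries. Genes were placed by name on WBcel235 with Ensembl 115, which gave positions and exonic lengths. The counting may have used another annotation. No sequences were used here.

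Members and lists were chosen with earlier results of these data known. Any tested member could be named, untested ones by their reads, and partners by the 3 lowest p-values; bli-4, kpc-1 and the marker genes named singly were chosen after their values were seen.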

Additional observations from a re-analysis of the deposited data

Results flagged for a closer look

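Over 44 groups of 5 libraries (22 tested members in 2 genotypes), a test for a single library far from the others (Dixon, 95% critical value 0.710) marked 3 libraries, where chance marks about 1 in 20 groups. The fbn-1 level in daf-2 replicate 1 was 106 CPM against 51.9 to 66.7 CPM in the other daf-2 libraries. The let-653 level in chd-7;daf-2 replicate 5 was 8.05 CPM against 1.23 to 2.18 CPM in the others. The cutl-23 level in daf-2 replicate 2 was 4.03 CPM (4.025) against 1.57 to 2.22 CPM in the others.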

How the results depend on the processing

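No call reversed its direction under any alternative. Of the 11 called members, noah-1, noah-2, cut-6 and cutl-14 kept their calls in each alternative. So did cutl-16 wherever it was tested, which left out the stricter filter. It had passed the main filter only through its chd-7;daf-2 libraries, so its kept calls add no support. With a fold threshold of 1.5, calls were 5 of 22 members (22.7%), 8 of 34 matrix partners and 1214 of all tested genes (9.71%). When daf-2 replicates 2 and 3 were left out together with chd-7;daf-2 replicate 4, calls were 7 of 23 members (30.4%), 15 of 36 partners and 3603 of 12828 genes (28.1%), and cut-1, cutl-19, cutl-20 and fbn-1 were lost. Summing close libraries gave 7 of 25 members (28.0%), 11 of 36 partners and 2631 of 13146 genes (20.01%), and cut-1, cutl-19, dex-1 and fbn-1 were lost. The summed pairs were replicates 1 with 2 and 3 with 4 in the double mutant and 4 with 5 in daf-2, whose counts differed least, by a chi-square per degree of freedom of 3.83 to 6.58 against 15.99 to 67.4 in other pairs. Leaving out each library in turn gave 8 to 10 members, 3358 to 4617 genes and 12 to 18 partners. DESeq2 also called let-653 (adjusted p = 0.0466). Same-numbered libraries correlated at -0.19 to 0.33 in their deviations from the genotype means, over 0.1 in 3 of 5 pairs. Of the 10 libraries, 5 correlated best with their own number. These values do not settle whether the numbers pair the samples. With the replicate block, 9 members (40.9%), 4764 genes (38.1%) and 16 partners (47.1%) were called. The calls of cut-1 (adjusted p = 0.141) and cutl-19 (0.0657) were lost. Levels near 1 CPM stand on about 10 reads per library, which limits cut-5, let-653, cutl-16 and cutl-22.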

Other observations

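The dauer collagen genes col-2 and col-40 varied between libraries much as cut-1 did, a likeness noticed after their values were seen. In daf-2 replicates 1 to 5, where cut-1 was at 1.79, 23.5, 6.13, 26.5 and 15.1 CPM, col-2 was at 9.39, 105.8, 17.0, 58.0 and 32.2 CPM and col-40 at 8.71, 118, 19.96, 77.3 and 39.5 CPM. In chd-7;daf-2, where cut-1 was at 4.30, 4.91, 1.21, 0.327 and 5.17 CPM, col-2 was at 21.1, 23.3, 7.16, 2.51 and 16.04 CPM and col-40 at 20.6, 22.6, 10.3, 3.49 and 16.5 CPM. All 3 genes had daf-2 replicates 1 and 3 as the lowest of their genotype and chd-7;daf-2 replicate 4 as the lowest of all. Neither collagen passed the threshold between genotypes (adjusted p = 0.0801 for col-2 and 0.0510 for col-40).

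The chd-7;daf-2 replicate 5 library, in which let-653 and noah-2 were highest, was also high for some lipocalin genes of the apical matrix. There lpr-3, lpr-4 and lpr-5 were at 11.1, 11.1 and 11.5 CPM, against at most 4.18, 3.999 and 2.45 CPM in the other chd-7;daf-2 libraries. The moulting gene mlt-11 was at 26.5 CPM against at most 3.999 CPM, and the epidermal collagen gene dpy-7 at 7.40 CPM against at most 2.91 CPM. The moulting transcription factor gene nhr-23 was at 22.6 CPM against 13.3 to 16.3 CPM. Other lipocalin genes did not reach such contrasts. Over the chd-7;daf-2 libraries lpr-2 was at 25.2 to 34.5 CPM, and lpr-1 and lpr-7 reached at most 3.01 and 1.83 CPM.

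Beside sym-1, the neighbouring leucine-rich repeat genes lron-1 and let-4 lie inside C44H4.4 on chromosome X and also had 0 reads in all 10 libraries, whereas C44H4.4 itself had 2924 reads and the next gene outside, tap-1, 1870. The leucine-rich repeat gene egg-6 was called lower (-2.39 ± 0.78, adjusted p = 0.0352). It was at 25.8 CPM in chd-7;daf-2 replicate 4 and 1.09 to 3.51 CPM in the other 4. The germline list was likewise highest in that library (423 CPM summed, against 102 to 148 CPM).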
